A study of Mus musculus with 4 samples.

Results

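S100a8, S100a9, Lcn2, Lrg1, Nlrp3 and Il1b are 6 genes of neutrophils and of acute inflammation, measured here among 37325 genes in the hippocampus of mice. They were taken by name and were chosen by their measured values on these arrays: the difference between the genotypes at each age and its change between the ages. Those values are therefore given below as descriptions, with no test. S100A8 and S100A9 form calprotectin, a calcium- and zinc-binding protein that fills the cytoplasm of neutrophils and signals through TLR4 and RAGE when released. Lipocalin 2 (Lcn2) binds bacterial iron carriers and, like the secreted glycoprotein Lrg1, is made in the acute-phase response, in which cytokines of the interleukin 1 and interleukin 6 families drive transcription in liver, vessels and glia. NLRP3 is the sensor of an inflammasome, a complex that activates caspase-1, and caspase-1 cuts the precursor of interleukin 1 beta (Il1b).

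The hippocampus of wild-type (WT) mice and of mice with one copy of Rp58 knocked out (Rp58 hetero-KO; Rp58 is now Zbtb18, a zinc finger repressor) was profiled at 4 and at 18 months. The older mice are given as 18 months by their age label, while their description gives 12 to 18 months. In each group RNA from 3 samples was mixed and 200 ng of the mixture was labelled, so each group is 1 one-colour Agilent array. The sex of the mice, the strain and the design of the knockout allele are not given in the sources used here. No comparison between a pair of arrays has a test, since each group is 1 array, and precision is limited by how few arrays there are.

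A level is the processed signal divided by the 75th percentile of the array's signals, which was 1975 for young WT, 2111 for young hetero-KO, 1734 for old WT and 1714 for old hetero-KO. The scanner software marked between 77.9% and 81.9% of spots as well above background. All 16 hippocampal neuron markers were measured on every array. Zbtb18 itself read 17.5 in WT against 15.2 in hetero-KO at 4 months, and 18.9 against 21.4 at 18 months; whether its probe lies in the removed part is not known, so it does not check the genotype labels. The Y-linked gene Eif2s3y read 0.673 in young WT, was not well above background in young hetero-KO, and read 1.30 and 1.33 in old WT and old hetero-KO. Uty and Ddx3y were likewise not well above background in young hetero-KO alone, while Kdm5d, also Y-linked, was measured on every array. The X-linked Xist read 0.164 in young WT and 0.2305 in young hetero-KO, and was not well above background in either old pool. The sex makeup of the pools therefore cannot be told apart from genotype at 4 months or from age for any gene described here. The same holds for the change of the genotype difference with age.

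The 6 genes were read by 9 probes of 60 bases, each in 1 spot per array. The probes of S100a8 (chr3:90473778-90473837) and S100a9 (chr3:90496573-90496632, mm9) lay 22.7 kb apart. Lcn2 had a pair of probes on chromosome 2, Il1b had 3 on chromosome 2, Nlrp3 had 1 on chromosome 11 and Lrg1 had 1 on chromosome 17. Of the Lcn2 probes, the one at chr2:32241037-32241281 covers 245 bases of genome with 60 bases of sequence, so it crosses an exon junction and reads spliced RNA. Probe sequences are shown for S100a8, for this junction probe of Lcn2, whose dim signal is set against the brighter Lcn2 probe further on, and for Nlrp3, 5′ to 3′ as given with the array.
S100a8 probe: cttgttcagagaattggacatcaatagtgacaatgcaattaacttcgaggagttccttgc
Lcn2 junction probe: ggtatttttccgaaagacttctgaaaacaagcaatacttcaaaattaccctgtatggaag
Nlrp3 probe: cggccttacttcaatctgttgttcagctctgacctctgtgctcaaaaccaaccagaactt

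RefSeq promoters (assembly GRCm38.p6) were found for all 6 genes, 2 of them for Nlrp3. The 250 bases before the transcription start are shown for S100a8 (chr3:90668821-90669070, plus strand), S100a9 (chr3:90695722-90695971, minus strand) and Lcn2 (chr2:32387740-32387989, minus strand), because these genes were the furthest apart between the ages. Sequences run 5′ to 3′ on the strand of the gene, and capitals mark matches to the motifs searched, on either strand.
S100a8 promoter: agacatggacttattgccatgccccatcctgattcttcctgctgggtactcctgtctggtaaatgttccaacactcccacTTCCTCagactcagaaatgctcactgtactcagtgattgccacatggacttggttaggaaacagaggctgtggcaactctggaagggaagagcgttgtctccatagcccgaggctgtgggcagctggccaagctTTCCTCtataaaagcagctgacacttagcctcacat
S100a9 promoter: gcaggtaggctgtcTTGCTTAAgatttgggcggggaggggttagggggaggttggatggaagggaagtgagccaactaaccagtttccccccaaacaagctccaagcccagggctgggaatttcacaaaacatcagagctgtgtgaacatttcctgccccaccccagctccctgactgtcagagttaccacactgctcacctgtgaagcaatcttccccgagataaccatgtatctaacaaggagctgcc
Lcn2 promoter: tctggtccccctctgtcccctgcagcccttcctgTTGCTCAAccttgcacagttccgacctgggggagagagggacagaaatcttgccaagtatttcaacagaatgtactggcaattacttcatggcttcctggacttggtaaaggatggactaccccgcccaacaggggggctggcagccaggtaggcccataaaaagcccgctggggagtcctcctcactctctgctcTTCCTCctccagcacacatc
The motifs were TTNNGCAA for C/EBP factors, TTCNNNGAA for STAT factors, GAGGAA for the myeloid factor PU.1, ACATCTG for ZBTB18 and the NF-kappaB consensus, and no matches to different motifs overlapped in these windows. The PU.1 motif was present at 2 places in the S100a8 window, 1 place in the Lcn2 window and 3 places in one Nlrp3 window, against 23.25% of all 32851 promoter windows with at least 1. A C/EBP motif was found in S100a9 (bases −236 to −229 from the start) and in Lcn2 (−216 to −209), against 9.56% of all windows. The other Nlrp3 window held an NF-kappaB match (7.25% of all windows), and the Lrg1 and Il1b windows held no match. The ZBTB18 motif, present in 3.71% of all windows, and the STAT motif, present in 7.02%, matched none of the windows of the 6 genes. A match is a run of letters and says nothing of binding.

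S100a8 and S100a9, the paired calprotectin subunits, were lowest in hetero-KO at 4 months and highest in hetero-KO at 18 months. S100a8 at 4 months had a level of 0.0785 in WT against 0.0220 in hetero-KO, and at 18 months of 0.1005 in WT against 0.2455 in hetero-KO. The levels of S100a9 were 0.266 (WT) against 0.0799 (hetero-KO) at 4 months, and 0.303 against 0.828 at 18 months, for WT and hetero-KO. The WT pools of the 2 ages lay close together for both genes, and the hetero-KO pools lay on either side of them.

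At 4 months S100a8 was 3.57-fold lower and S100a9 3.33-fold lower in hetero-KO than in WT, a log2 difference of −1.83 and −1.74. The error that the scanner software assigns to the spots, carried through to the difference, was 0.21 and 0.20; it describes the reading of a spot, not the spread between mice. With normexp background correction the 4-month differences were −0.96 and −1.34, so that S100a8 fell short of 2-fold. At 18 months S100a8 was 2.44-fold and S100a9 2.74-fold higher in hetero-KO (log2 1.29 and 1.45, with spot errors of 0.20 and 0.19). The authors' deposited table has the opposite direction at 18 months for S100a8, S100a9, Lcn2 and Lrg1, and its values are given at the end. From 4 to 18 months the level in hetero-KO was 11.15-fold higher for S100a8 and 10.4-fold higher for S100a9, while in WT it was 1.28-fold and 1.14-fold higher. The profiles of the 2 genes over the 4 arrays, each centred on its mean, differed by a root mean square of 0.10 on the log2 scale, the smallest such distance between any pair of the 6 genes.

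**Figure D1:**
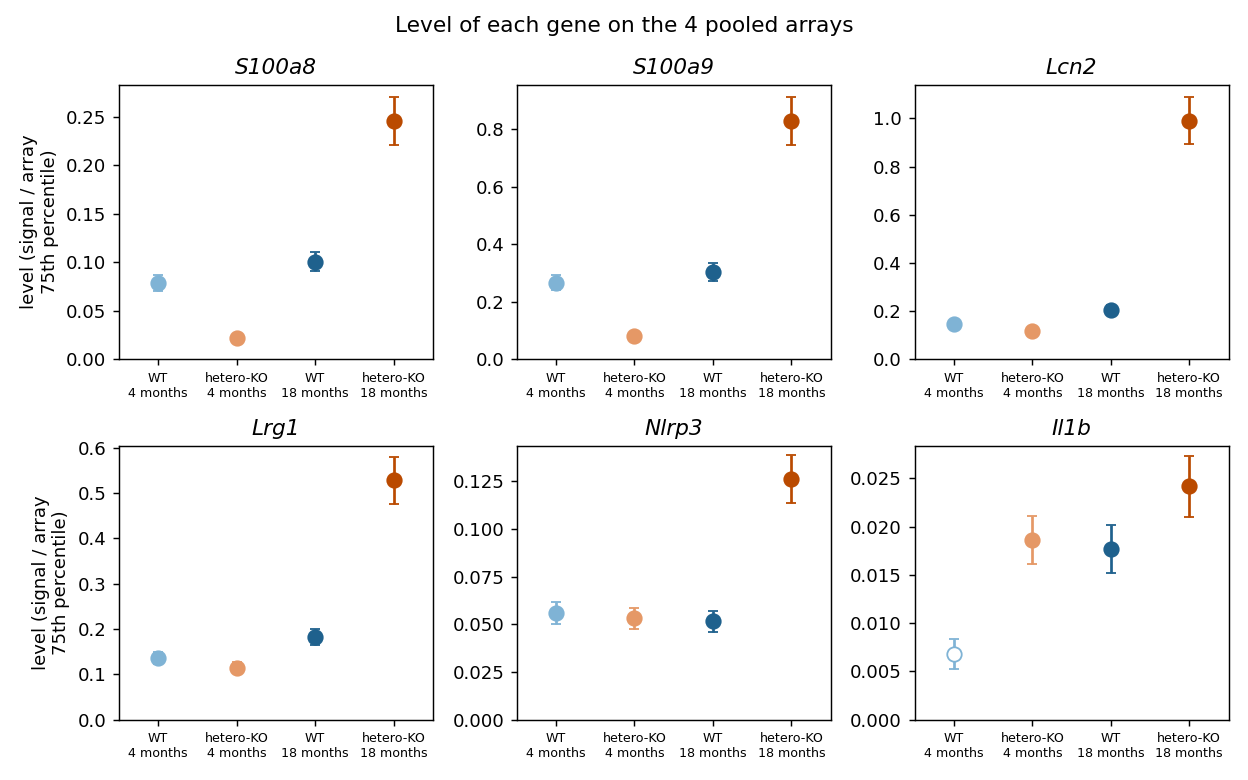
Level of each of the 6 genes (signal divided by the array's 75th percentile, linear axis from 0) on the 4 pooled arrays; bars are the spot error of the scanner software and the open circle is a spot not well above background. Hetero-KO at 18 months is the highest array in all 6 panels, with Lcn2 at 0.991 and S100a9 at 0.828, and Il1b is lowest in WT at 4 months.

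Lcn2 and Lrg1, the secreted acute-phase proteins, differed little between the genotypes at 4 months and were higher in hetero-KO at 18 months. Lcn2 at 4 months had a level of 0.1475 in WT against 0.116 in hetero-KO, and at 18 months of 0.204 against 0.991. The levels of Lrg1 were 0.137 (WT) against 0.115 (hetero-KO) at 4 months, and 0.183 against 0.528 at 18 months. By the brightest probe of each gene, 3 arrays lay together and hetero-KO at 18 months stood apart above them.

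In hetero-KO Lcn2 was 4.86-fold higher than in WT at 18 months (log2 2.28, spot error 0.19) and Lrg1 2.89-fold higher (1.53, spot error 0.19). At 4 months they were 1.27-fold and 1.19-fold lower (−0.34 and −0.25, spot error 0.20 for each). The junction probe of Lcn2 gave the same order: at 4 months it read 0.00888 in WT and 0.00546 in hetero-KO, the latter not well above background, and at 18 months 0.0223 and 0.173. By that probe the 18-month difference was 7.77-fold (log2 2.96, spot error 0.22). The 2 probes of Lcn2 thus placed hetero-KO of 18 months highest and differed in the size of the fold.

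Nlrp3 was even across 3 arrays and higher in hetero-KO at 18 months. At 4 months its level was 0.0559 in WT against 0.0531 in hetero-KO, and at 18 months 0.0516 against 0.126. The 4-month difference of −0.07 was below its spot error of 0.20, and the 18-month difference was 2.45-fold (log2 1.29, spot error 0.20). With normexp the latter was 0.78, short of 2-fold.

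Il1b, the cytokine that the NLRP3 inflammasome matures, did not share this order. By its brightest probe it was not well above background in WT at 4 months, where the reading was 0.00684, and stood at 0.0186 in hetero-KO of that age, at least 2.72-fold higher. Such a fold is a bound, taken against the dim reading or, where that is higher, against the array's lowest level well above background. A bound can only point towards the array that was measured. At 18 months Il1b read 0.0177 in WT against 0.02415 in hetero-KO, a 1.37-fold difference (log2 0.45, spot error 0.26). With normexp the 4-month and 18-month differences were 0.35 and 0.06, and with the mean of the 3 probes 0.57 and 1.01. Its other 2 probes were not well above background on any array, so the gene rests on 1 dim probe.

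At 4 months 2 of the 5 genes measured in both genotypes, S100a8 and S100a9, were at least 2-fold lower in hetero-KO, as were 0.634% of 28408 genes (1.34% were 2-fold apart in either direction). At 18 months 5 of the 6 were at least 2-fold higher in hetero-KO, as were 0.525% of 27625 genes (1.14% in either direction), and Il1b was not. These contrasts chose the genes, and nothing is read from the counts. Among all genes measured, Lcn2 was number 11 from the top in the 18-month difference, Lrg1 number 49, S100a9 57, Nlrp3 77, S100a8 79 and Il1b 962. S100a8 and S100a9 were numbers 31 and 35 from the bottom at 4 months.

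**Figure D2:**
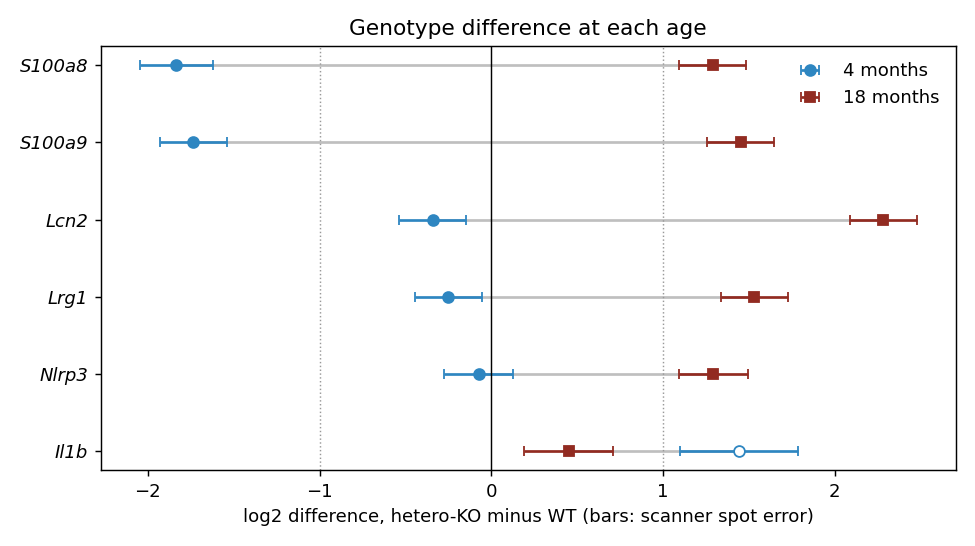
Log2 difference of hetero-KO from WT at 4 months (circles) and 18 months (squares) for each of the 6 genes, with the spot error as bars and dotted lines at 2-fold; the open circle marks a value that involves a spot not well above background. S100a8 and S100a9 lie beyond −1 at 4 months and beyond 1 at 18 months, and Il1b has the larger difference at 4 months.

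The difference between the 2 genotype differences (18 months less 4 months, on the log2 scale) was 3.19 for S100a9, 3.12 for S100a8, 2.62 for Lcn2, 1.78 for Lrg1 and 1.365 for Nlrp3, with spot errors between 0.28 and 0.29. For Il1b it was −0.99, with a spot error of 0.43 and a dim reading in WT at 4 months, and it turned to 0.44 when the 3 Il1b probes were averaged. Of all 27380 genes measured on all 4 arrays, 1.15% had a value of 1 or more in this direction (2.22% in either). It has no replicate and no test. In hetero-KO, 5 of the 6 genes were at least 2-fold higher at 18 than at 4 months, against 1.1% of 27613 genes (2.21% in either direction). In WT none of the 5 measured at both ages was, against 0.775% of 28271 genes (1.6% in either direction), while Il1b, dim at 4 months, was at least 2.585-fold higher at 18 months in WT. That count rests on the brightest probe of each gene. By its junction probe Lcn2 was 2.51-fold higher at 18 than at 4 months in WT (log2 1.33, spot error 0.30).

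Genotype (averaged over the ages) and age (averaged over the genotypes) were tested in limma, with 1 residual degree of freedom. That fit takes a genotype difference that changes with age as its error, so it has little to say of genes chosen for such a change. None of the 6 genes passed for genotype, with limma adjusted p between 0.411 (Il1b) and 0.95 (S100a9), where 0.0103% of 29088 genes did. None passed for age, with limma adjusted p between 0.163 (Lrg1) and 0.384 (Nlrp3), where 1.64% of genes did (1.08% rose and 0.56% fell; of 477 calls 314 rose, but of 167 calls with quantile scaling 52 rose). The age differences were 1.92 ± 0.73 (SE) for S100a8, 1.78 ± 0.74 for S100a9, 1.78 ± 0.61 for Lcn2 and 1.31 ± 0.42 for Lrg1 on the log2 scale, over 4 arrays. The pooled RNA samples behind an array are not seen singly, so these p-values describe 4 pools and not mice.

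Other genes that mark neutrophils were then read on the same arrays, from a list of 12 that includes S100a8 and S100a9. S100a8 and S100a9 were chosen for these differences. Without them, all 6 markers measured in both genotypes at 4 months were lower in hetero-KO (median −0.07), and 4 of 7 were higher at 18 months (median 0.13). Of the 6, only Mpo and Mmp8 were lower by more than their spot error at 4 months. For this and the later counts, 44.42% of all measured genes were higher in hetero-KO at 4 months and 47.94% at 18 months. In bulk tissue, fewer cells of a type and less RNA per cell cannot be told apart. Of the other 10, Ngp, a protein of the secondary granules, read 0.00729 in young WT and 0.0175 in old hetero-KO and was not well above background in the other 2 pools; at 18 months hetero-KO was at least 2.31-fold higher than WT. Retnlg, a resistin-like protein of mature neutrophils, was well above background only in hetero-KO at 18 months, at 0.0241, at least 2.89-fold higher than WT. Ltf, the iron-binding granule protein lactoferrin, read 0.0105 in WT at 4 months with no reading well above background in hetero-KO, and 0.0137 against 0.0297 at 18 months (2.17-fold).

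The remaining neutrophil markers differed less. Camp, the cathelicidin peptide gene, was 1.63-fold and Ly6g, the surface antigen of mouse neutrophils, 1.62-fold higher in hetero-KO at 18 months, and both were 1.05-fold lower in hetero-KO at 4 months. Mmp8, a collagenase of granules, and the primary granule enzymes Mpo and Elane were between 1.08-fold lower and 1.095-fold higher in hetero-KO at 18 months. The chemokine receptor Cxcr2 was not well above background on any array, and Csf3r, the receptor of the growth factor G-CSF, read 61.0 to 68.5 on all 4. Its probe was far brighter than those of the other neutrophil markers, and whether it reads Csf3r alone was not tested. Without S100a8, S100a9 and Csf3r, the summed level of the other 9 markers was 0.666 in WT against 0.6003 in hetero-KO at 4 months, and 0.642 against 0.790 at 18 months; 7, 5, 6 and 8 of them were well above background in that order. Ltf, Camp and Ly6g were thus highest on the array where S100a8 and S100a9 were highest. Ngp and Retnlg read highest there too, but at 18 months were measured in hetero-KO alone, so their direction was fixed. The part of neutrophil number in these levels was not tested.

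**Figure D3:**
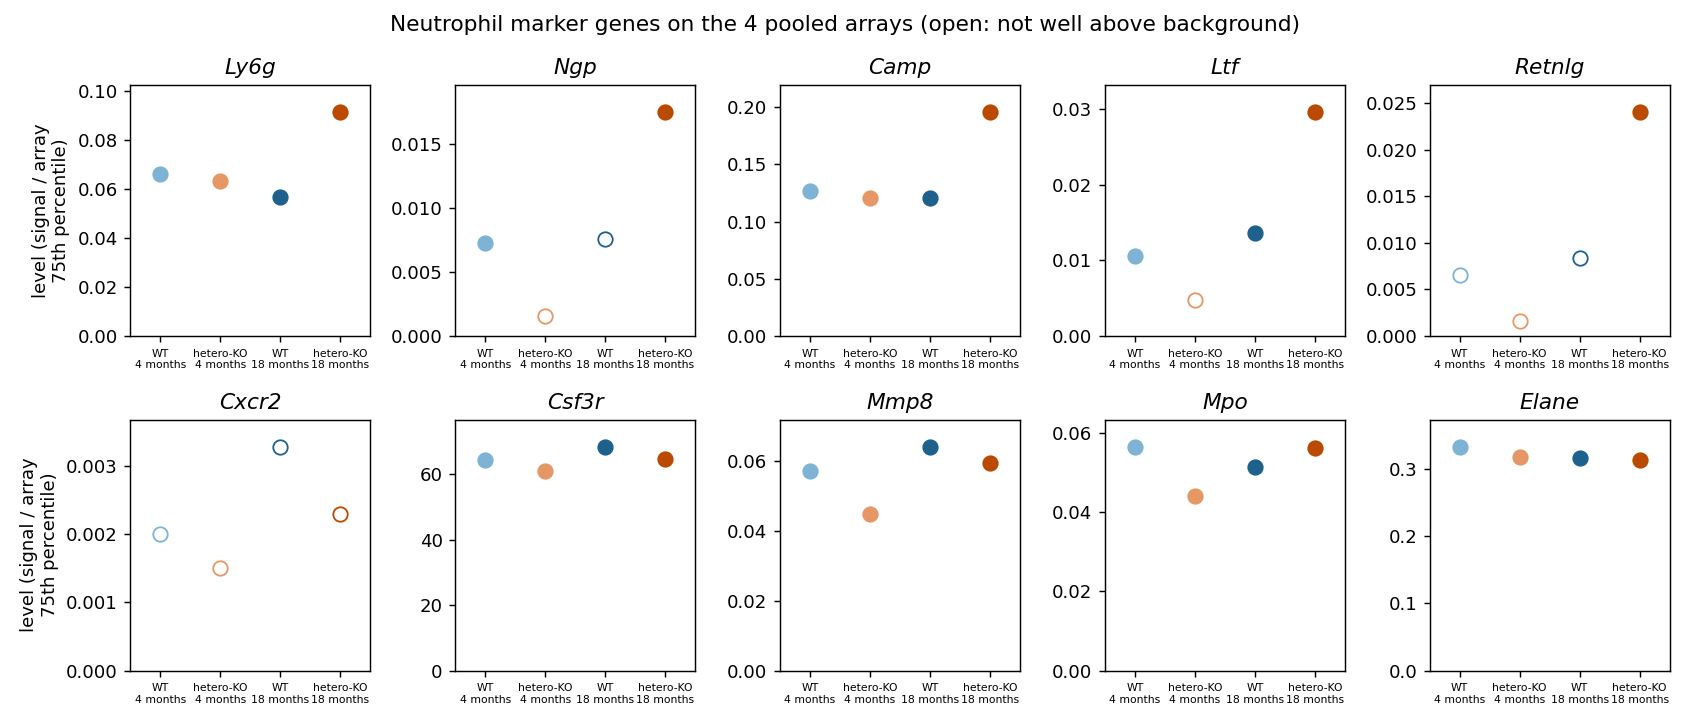
Level (signal divided by the array's 75th percentile, linear axis from 0) of the 10 other genes of the neutrophil marker list on the 4 pooled arrays; open circles are spots not well above background. Ngp, Retnlg, Ltf, Camp and Ly6g are highest in hetero-KO at 18 months, and Csf3r, Mmp8, Mpo and Elane are not.

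A wider list of 30 neutrophil granule and maturation genes, which holds none of the 6 genes, had a median difference of −0.10 at 4 months (19 of 23 measured genes lower in hetero-KO) and of 0.14 at 18 months (17 of 24 higher). The medians over all measured genes were −0.02 and −0.01. Of the 24 measured in both genotypes at 18 months 1, Ltf, was at least 2-fold higher in hetero-KO, as were 0.525% of all genes. Ngp, Retnlg and the cystatin-like Stfa2l1 (at least 2.21-fold) had bounds past 2-fold but were measured in hetero-KO alone at that age. Such genes can only come out higher there, so their direction is no result. Chil3, a chitinase-like protein of neutrophils and monocytes, had levels of 0.0310 (WT) against 0.0193 (hetero-KO) at 4 months and 0.0299 against 0.0593 at 18 months. Lyz2, lysozyme of myeloid cells, had levels of 2.63 and 2.16, and 5.585 and 9.99, and its age difference of 1.65 ± 0.26 (SE) did not pass (limma adjusted p = 0.0601).

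None of the other acute-phase genes measured in both genotypes at 18 months was 2-fold apart, which is near the 1.14% of all genes. Of 38 listed genes of this response and of its transcription factor STAT3, 20 of 30 measured at 18 months were higher in hetero-KO (median 0.19), and 23 of 31 were lower at 4 months (median −0.10). At 4 months 2 of these 31 were at least 2-fold lower in hetero-KO, as were 0.634% of all genes: Hp, the haemoglobin-binding protein haptoglobin, by 1.32 and Apcs, serum amyloid P, by 1.08 on the log2 scale. Timp1, an inhibitor of metalloproteases, had levels of 0.194 (WT) against 0.174 (hetero-KO) at 4 months and 0.289 against 0.4905 at 18 months, and Ptx3, a pentraxin, was higher by 0.70 in hetero-KO at 18 months. Lbp, the carrier of bacterial lipopolysaccharide, was lower by 0.50 at 4 months and by 0.78 at 18 months. The metallothioneins Mt1 and Mt2, the brightest of the list, were higher by 0.26 and 0.41 at 18 months. With age, Serpina1a, an antiprotease, rose by 1.25 ± 0.14 (SE, limma adjusted p = 0.046) and Cish, an inhibitor of cytokine signalling, fell by 0.50 ± 0.06 (SE, limma adjusted p = 0.0484).

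Of 29 partners of NLRP3 and of interleukin 1 on the array, 14 of 23 measured at 18 months were higher in hetero-KO (median 0.07) and 15 of 23 were lower at 4 months (median −0.07), and none was 2-fold apart at either age, which is near the 1.34% and 1.14% of all genes. The adaptor Pycard was 1.05-fold and Casp1, the protease of the complex, 1.22-fold higher in hetero-KO at 18 months. Casp4, a caspase that binds lipopolysaccharide, was higher by 0.58 in hetero-KO at 18 months and the DNA sensor Aim2 by 0.33, after differences of −0.04 and −0.67 at 4 months. Il1r1, the signalling receptor of interleukin 1, was lower in hetero-KO by 0.66 at 4 months and by 0.44 at 18 months. Il1a and the antagonist Il1rn were not well above background on any array. Il33, an interleukin 1 family cytokine of glia, rose with age by 0.57 ± 0.07 (SE, limma adjusted p = 0.0497), and no gene of the list passed for genotype.

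The list of 16 S100 genes held 1, S100pbp, that encodes a binding partner and is no S100 gene. Of the other 15, 11 were measured in both genotypes, with a median difference of −0.15 at 4 months and of 0.0022 at 18 months. None of them was 2-fold apart at either age, near the 1.34% and 1.14% of all genes. S100a5 and S100a2 had the largest 18-month differences of the list, −0.73 and −0.57, after −0.15 and −0.20 at 4 months. S100a4, of macrophages and fibroblasts, differed by −0.37 and 0.31 at the 2 ages, and S100b, of astrocytes, by 0.10 and −0.05. S100a6 rose with age by 0.85 ± 0.10 (SE, limma adjusted p = 0.046).

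Of 20 receptors and partners through which S100A8/A9, LCN2 and LRG1 act, none of the 19 measured at 4 months and 18 at 18 months was 2-fold apart between the genotypes, near the 1.34% and 1.14% of all genes, with medians of −0.08 at 4 months and 0.01 at 18 months. The receptor Tlr2 had levels of 0.108 (WT) against 0.123 (hetero-KO) at 4 months and 0.217 against 0.291 at 18 months and rose with age by 1.123 ± 0.10 (SE, limma adjusted p = 0.0358). Slc22a17, a receptor of lipocalin 2, rose by 0.32 ± 0.04 (SE, limma adjusted p = 0.0461). Emb went the other way, with differences of −0.34 at 4 months and −0.42 at 18 months. Cd14, the co-receptor of TLR4, was higher in hetero-KO by 0.36 at 18 months, and its age difference of 0.90 did not pass (limma adjusted p = 0.0529).

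A list of 32 genes of the NF-kappaB and TNF response also held components of these pathways, such as the NF-kappaB subunit Rela. Of these, 20 of 28 measured at 18 months were higher in hetero-KO (median 0.15), as against 10 of 28 at 4 months (median −0.03). Cxcl1, a chemokine that attracts neutrophils, read 0.0132 in WT against 0.0103 in hetero-KO at 4 months, and 0.0118 against 0.0569 at 18 months. Its 18-month difference of 2.27 was the only one at least 2-fold higher among the 28 measured in both genotypes, against 0.525% of all genes. Of its 4 arrays, 3 lay together. Ccl7, a monocyte chemokine, had no reading well above background in old WT and stood at 0.0295 in old hetero-KO, at least 3.21-fold higher. The neutrophil chemokine Cxcl2 stood at 0.0300 in young WT and was too dim to measure in young hetero-KO, at least 4.46-fold lower. At those ages Ccl7 and Cxcl2 were each measured in a single genotype, so the direction of both bounds was fixed and is no result. Cxcl5, another neutrophil chemokine, was lower in hetero-KO at both ages. Its levels were 0.264 (WT) against 0.128 (hetero-KO) at 4 months and 0.651 against 0.2745 at 18 months. Among the 28, Cxcl5 alone passed 2-fold downward at each age, against 0.634% of all genes at 4 months and 0.612% at 18 months. The chemokine Cxcl10 alone passed 2-fold upward at 4 months, by 1.37 on the log2 scale, against 0.704% of all genes. Calls on this list thus went in both directions at each age. The chemokine Ccl2 was higher by 0.98 in hetero-KO at 18 months and differed by −0.10 at 4 months. With age 4 genes of this list rose by limma: the macrophage chemokines Ccl3, by 2.22 ± 0.18 (SE, adjusted p = 0.0332), and Ccl4, by 1.77 ± 0.21 (SE, adjusted p = 0.0478), Cxcl5, by 1.20 ± 0.09 (SE, adjusted p = 0.0295), and the NF-kappaB inhibitor Nfkbia, by 0.38 ± 0.04 (SE, adjusted p = 0.0461).

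Over the 6 lists of granule, acute-phase, inflammasome, S100, receptor and NF-kappaB genes, 11 genes passed for age and none for genotype, against 1.64% and 0.0103% of all genes tested. All 11 kept their sign when arrays were scaled by the median or by quantiles, but 5 and 3 of them passed there; by the authors' deposited table only 1 of the 11 kept its sign, while 5 of them passed. None passed when probes were averaged per gene, with no filter on dim probes or with no variance trend.

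The genes with the most similar pattern to each of the 6 were sought among the 17161 officially named genes that all 4 arrays measured, by the root mean square difference of centred log2 levels over the 4 arrays. For S100a9 they were Prg4, a lubricant protein of joints and serosal surfaces (0.37), the inhibitory receptor Lilrb4a (0.43) and the chemokine Ccl8 (0.46), and the same 3 genes were the nearest to S100a8 (0.44 to 0.46). Ccl8 had levels of 0.0222 (WT) against 0.0109 (hetero-KO) at 4 months and 0.0529 against 0.156 at 18 months. For Lcn2 the nearest were Cxcl1 (0.31), Trim10 (0.33) and Prg4 (0.39), and for Lrg1 Ccl2 (0.22), the lectin Cd209b (0.25) and H2al1j (0.25). The nearest to Nlrp3 were the transcription factor Six2 (0.06), the heparanase Hpse (0.06) and the odorant receptor Olfr1335 (0.08). Il1b was nearest to the interferon-induced chemokine Cxcl10 (0.13), which had levels of 0.0569 (WT) against 0.147 (hetero-KO) at 4 months and 0.142 against 0.239 at 18 months, then to Mdfi (0.14) and Tuba8 (0.24), distances that rest in part on its dim reading in WT at 4 months. None of the 17161 came as close to S100a8 as S100a9 did.

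Markers of several other cell types were, like S100a8 and S100a9, mostly lower in hetero-KO at 4 months and mostly higher at 18 months. All 9 measured red blood cell genes were higher in hetero-KO at 18 months (median 0.27), and 7 of 9 were lower at 4 months (median −0.22); the summed level of the 11 on the array was 109 in WT against 101 in hetero-KO at 4 months, and 121 against 145 at 18 months. Border macrophage markers, which mark macrophages of the meninges and vessels, were higher for 11 of 12 at 18 months (median 0.64) and lower for 8 of 12 at 4 months (median −0.26), with summed levels of 2.12, 1.78, 1.71 and 2.455 for WT and hetero-KO at 4 months and then at 18 months. Meningeal fibroblast markers had medians of −0.31 and 0.42, with summed levels of 22.4, 19.5, 15.3 and 20.2 in the same order, so that here WT at 4 months was the highest array. None of the border macrophage and meningeal markers on the array was missing from all arrays.

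Endothelial markers had a median of −0.23 at 4 months and of 0.07 at 18 months, and Vwf, the clotting factor of vessels, differed by −0.48 and 0.82. Summed endothelial levels were 43.95 (WT) against 40.7 (hetero-KO) at 4 months and 42.5 against 47.3 at 18 months, with Sele not well above background on any array. All 27 measured reactive astrocyte markers were higher in hetero-KO at 18 months (median 0.26), and 19 of 27 were lower at 4 months (median −0.10); the summed level was 30.75, 28.1, 35.3 and 41.2. Homeostatic microglia markers were higher in hetero-KO for 15 of 16 at 18 months (median 0.23) and for 11 of 16 at 4 months (median 0.05), with summed levels of 72.2, 72.0, 90.1 and 101.6, and 8 of 16 rose with age by limma, against 1.08% of all genes. Of these 8, 4 passed with median scaling, 3 with quantile scaling and 0 when probes were averaged, with no filter, with no variance trend or without the genotype term; by the authors' deposited table only 1 microglia marker rose. Monocyte markers had medians of −0.09 and 0.10, with summed levels of 28.0, 32.15, 29.8 and 36.6, and F10 not well above background on any array. Nr4a1 carried much of that sum: without it the summed levels were 13.6, 12.96, 13.15 and 15.9, and the medians −0.09 and −0.09.

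Choroid plexus markers were lower in hetero-KO for all 18 at both ages (medians −0.41 and −0.83; summed levels 192, 157, 228 and 175), and lymphocyte markers had medians of −0.11 and −0.06 (summed levels 1.865, 1.92, 2.10 and 2.04, with Cd3g not well above background on any array). Hippocampal neuron markers had medians of −0.02 and 0.02. The part of blood, meninges or any of these cell types in the levels of the 6 genes was not tested.

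**Figure D4:**
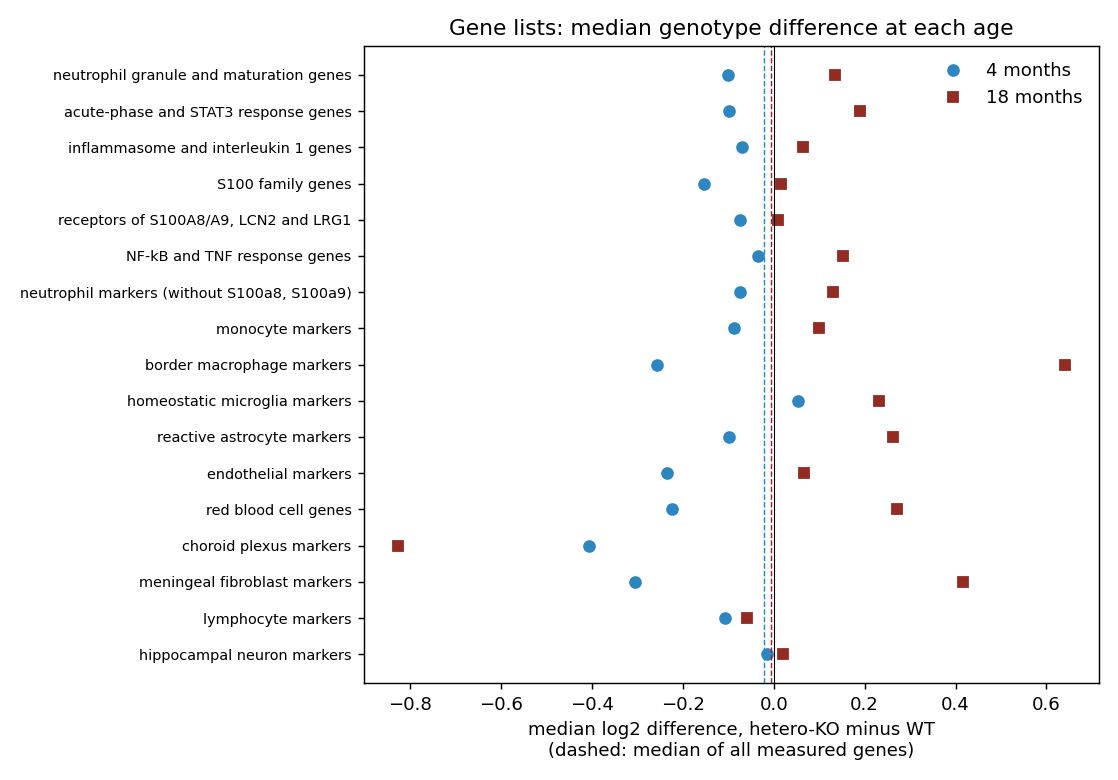
Median log2 difference of hetero-KO from WT over the measured genes of each list at 4 months (circles) and 18 months (squares); dashed lines are the medians of all measured genes, −0.02 and −0.01. Neutrophil markers are shown without S100a8 and S100a9 (−0.07 and 0.13), and the S100 family list includes S100pbp. The border macrophage, red blood cell and meningeal fibroblast lists lie below 0 at 4 months and above 0 at 18 months, and choroid plexus markers lie below 0 at both.

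The authors' deposited table of normalized values gave another picture at 18 months. Its 4-month columns are the scanner signals over about the same percentile, at a constant ratio to the levels used here of 0.9944 for WT and 0.9938 for hetero-KO. Its 18-month columns are no constant multiple of the scanner files of those samples. With the most extreme spots at either end set aside, the ratio of the 2 ran from 0.167 to 5.29 for WT and from 0.159 to 5.51 for hetero-KO. On the log2 scale these columns correlated at 0.9816 (WT) and 0.9812 (hetero-KO) with the scanner arrays of their own samples. With the array of hetero-KO at 4 months they correlated at 0.9849 and 0.9846, the highest of the arrays. The arrays behind these columns are thus unknown. At 18 months the authors' deposited table has S100a8 at 0.05 in WT and 0.0284 in hetero-KO, S100a9 at 0.168 and 0.0747, Lcn2 at 0.1205 and 0.0940, and Lrg1 at 0.2295 and 0.167, all lower in hetero-KO. In the authors' deposited table Nlrp3 stood at 0.0515 and 0.0532, and Il1b at 0.0310 and 0.0527. The higher levels of S100a8, S100a9, Lcn2, Lrg1 and Nlrp3 in hetero-KO at 18 months are therefore a result of the scanner files alone.

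**Figure D5:**
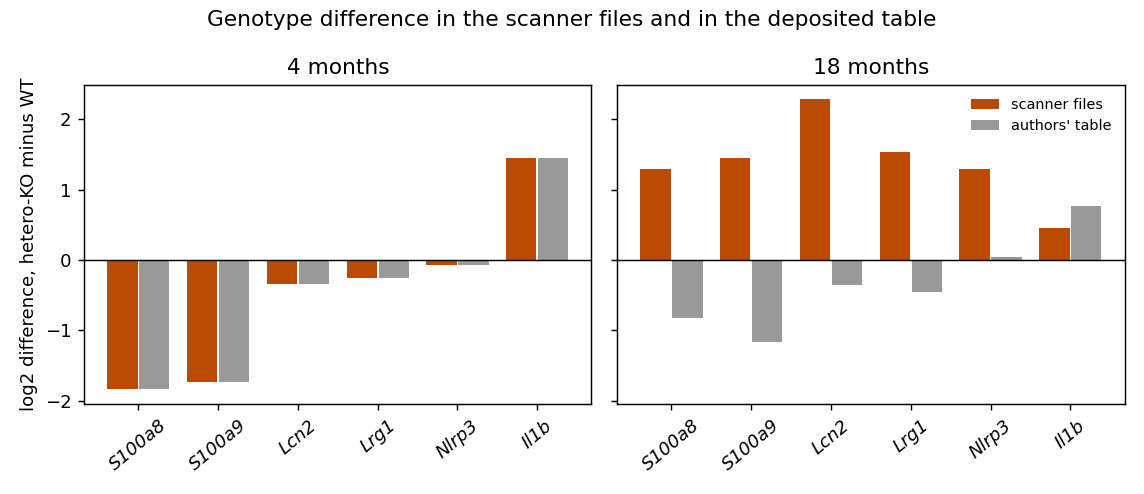
Log2 difference of hetero-KO from WT for the 6 genes at 4 months (left) and 18 months (right) in the scanner files and in the authors' deposited table. The bars are equal at 4 months, and at 18 months S100a8, S100a9, Lcn2 and Lrg1 lie above 0 in the scanner files and below 0 in the deposited table.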

How the data were processed

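Hippocampal RNA, pooled from 3 samples per group, was hybridised to 4 one-colour arrays. The authors deposited the scanner's linear intensity for each spot. Feature Extraction 11.5.1.1 (Agilent), per the file headers, removed spatial trends, subtracted negative controls and replaced dim spots by surrogates (probe build mm9). The authors' deposited value table holds a linear ratio, used only as an alternative; its log base is none, it is not centred per gene, its direction is that of a level, and its column medians were 0.107, 0.103, 0.0998 and 0.0987.

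Log2 signal less each array's 75th percentile was averaged over the spots of a probe. A probe counted as measured with 50% or more of its spots well above background, and a gene was read by its probe of highest mean level. Symbols came from RefSeq accessions (assembly GRCm38.p6): 32994 of 56605 probes matched. Genes measured on at least 2 arrays were tested with limma 3.58.1 (R 4.3.3, additive genotype and age, eBayes with trend, Benjamini-Hochberg at 0.05). A called difference between a pair of arrays is 2-fold or more.

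The 6 genes and all lists were chosen with earlier results of these data known. Named were the 6 genes; in each list the 2 brightest, the 3 (marker lists 2) with the largest 18-month difference and those past limma; and the 3 genes nearest in pattern. Ngp, Retnlg, Ly6g, Mpo, Mmp8, Cxcr2, Pycard, Casp1, Il1a, Il1rn, Hp, Apcs, Stfa2l1, Ccl7, Cxcl2, S100pbp, Sele, F10 and Cd3g were named after their values were seen. Alternatives were normexp background (offset 50), quantile or median scaling, the mean of probes, other filters, a 1.5-fold mark and the deposited table. Lists without S100a8 and S100a9, S100pbp or Nr4a1 were formed after seeing the data. So was the summed neutrophil level that also leaves out Csf3r, which the medians of that list keep.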

Additional observations from a re-analysis of the deposited data

Results flagged for a closer look

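Among the 6 genes and those named from the lists by rule, 90 were measured on all 4 arrays. Of these, 22 differed between the genotypes in opposite directions at 4 and 18 months, each time beyond the spot error. Genes named only as nearest in pattern were not counted. With 1 array per group the change of the difference was not tested. Among the 6 genes, S100a9 changed by 3.19, S100a8 by 3.12, Lcn2 by 2.62 and Lrg1 by 1.78 on the log2 scale (18-month difference less 4-month difference), all from lower to higher in hetero-KO.

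In the same direction, the change was 2.62 for Cxcl1, 1.67 for Chil3, 1.45 for Slc6a13, 1.40 for Aldh1a2, 1.31 for Clec10a, 1.30 for Vwf, 1.123 for Lyz2 and 1.003 for Aim2. It was 0.69 for Selp, 0.67 for S100a4, 0.63 for Hbb-bt, 0.61 for Dcn, 0.60 for Pf4, 0.57 for Col3a1, 0.56 for Ccl3, 0.56 for Hba-a1 and 0.49 for Hba-a2. Treml4, a receptor of monocytes and spleen macrophages, went the opposite way, with a change of −2.94. These genes were chosen for large differences at 18 months or high levels, so their share among the 90 is no estimate for other genes.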

How the results depend on the processing

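Scaling by the median or by quantiles moved each genotype and age difference of the 6 genes by less than its spot error, and the 4-month median of −0.30 over the 6 stayed within its spot error under each alternative. The 18-month median of 1.37 was 1.17 with normexp background and turned to −0.41 in the authors' deposited table. The median age difference in WT (0.39) was −0.21 in that table. In hetero-KO it was 2.64, with 2.09 under normexp, 3.09 over the 5 genes measured on all arrays and 0.18 in the table. The median change of the genotype difference with age was 2.20, with 1.75, 2.62 and 0.0522 in the same order. In the authors' deposited table the 18-month difference was −0.82 for S100a8, −1.17 for S100a9, −0.36 for Lcn2 and −0.455 for Lrg1, the age difference in hetero-KO was −0.10 for S100a9 and −0.31 for Lcn2, and the change of the genotype difference was −0.0176 for Lcn2 and −0.21 for Lrg1; the cause was not tested. For Il1b, normexp gave 0.35 and 0.06 at 4 and 18 months in place of 1.44 and 0.45, and the change of its difference was 0.44 with the mean of probes in place of −0.99.

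Past the limma threshold for genotype were 3 genes, against 14 with normexp, 10 measured on all arrays, 8 in the deposited table, 1 with the mean of probes, 1 without the age term, and 0 with no filter or no trend (in the fit with the filter and the trend 1495 rose and 1832 fell at unadjusted p below 0.05). For age there were 477, against 1338 with normexp, 762 measured on all arrays, 276 with median scaling, 167 with quantiles, 113 without the genotype term, 14 with the mean of probes, 9855 in the deposited table and 0 with no filter or no trend. Of these 477, 314 rose and 163 fell, against 52 and 115 with quantiles and 160 and 116 with median scaling. Genes at least 2-fold higher and lower numbered 200 and 180 at 4 months, 145 and 169 at 18 months, 219 and 234 with age in WT, 303 and 306 in hetero-KO, and 314 and 295 for the change of the genotype difference. With normexp they were 72 and 28, 25 and 41, 63 and 72, 88 and 122, and 48 and 101, and with no filter 851 and 1293, 1051 and 1073, 1142 and 1165, 1532 and 1173, and 2045 and 1591. At 1.5-fold they were 516 and 769, 582 and 730, 723 and 770, 1016 and 846, and 1057 and 797. The deposited table gave 987 and 1508 with age in WT and 868 and 1284 in hetero-KO. No paired analysis was possible because each group holds 1 array, and no array could be left out. Signals close to background, those of Il1b above all, limit what these arrays show.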
